A study of Mus musculus with 12 samples.

Results

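The TGF-beta ligands, receptors and latency proteins are described here by 10 genes, Tgfb1, Tgfb2, Tgfb3, Tgfbr1, Tgfbr2, Tgfbr3, Ltbp1, Ltbp2, Ltbp3 and Tgfbi. They were taken by gene symbol from a table of 22793 mouse genes, and each of the 10 had exactly 1 row. RNA was sequenced in 12 libraries, 3 in each of 4 groups, all from mice of the genotype RIP-rtTA; TetO-VEGF-A, in which the rat insulin promoter drives the doxycycline (Dox) dependent activator rtTA in beta cells and VEGF-A is under the control of that activator. The groups were CD11b+ macrophages and CD31+ endothelial cells, each sorted from dispersed purified islets after 1 week of Dox, whole islets after 1 week of Dox (Dox islets), and whole islets of mice given no Dox (No Dox islets). Both transgenes were thus present in every group, No Dox islets included, and mice without the transgenes given Dox are not analysed here. No sorted fraction came from mice without Dox, so a change within macrophages or endothelial cells was not measured.

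TGF-beta is secreted in a latent form, held by its own propeptide, and latent TGF-beta binding proteins tether that complex to the fibrillin matrix. Integrins and thrombospondin can free the ligand, which binds the type II receptor, and this recruits and phosphorylates the type I receptor, which in turn phosphorylates SMAD proteins that move to the nucleus. The pathway is known for its part in matrix production, in the recruitment and differentiation of mural cells around vessels and in the control of macrophages.

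The deposited values are linear signals normalised by the authors with a floor of 1, and the summed signal ran from 17635776 to 25226447 per library. Read depth is unknown, and no source used here states whether the signal is scaled to gene length. For this reason each gene is compared between groups and not with another gene. Marker sums followed the sorts. The 10 endothelial markers summed to 1639 to 2230.0 in macrophages and 246224 to 275768 in endothelial cells, and 10 macrophage markers to 323144 to 342824 in macrophages and 233 to 682 in endothelial cells. Acinar markers were highest, among the sorted libraries, in macrophage replicate 2 (437116) and endothelial replicate 2 (125648). Vegfa itself, the factor that the transgene carries, stood at 2027 ± 422 in Dox islets and 3967 ± 637 in No Dox islets (SD, n = 3), and how much of the transgene's transcript the gene model counts is not given in the sources used here. Marker sums also moved with Dox. The sum of 12 mural cell and fibroblast markers was 250497 to 534515 in Dox islets and 63516 to 149521 in No Dox islets, and that of the endothelial markers 89369.8 to 114675 in Dox islets and 35537 to 40403 in No Dox islets. The macrophage markers summed to 13364 to 19848 in Dox islets and 4057 to 6623 in No Dox islets, and 10 beta cell markers to 165514 to 227413 in Dox islets and 394856 to 691247 in No Dox islets. In whole islets, a change in the number of cells of a type and a change in RNA per cell cannot be told apart. Genes of high GC content stood above their group mean in Dox islets replicate 1 (Spearman's rho 0.57 over 15082 genes) and No Dox islets replicate 2 (0.64), and below it in the remaining 4 islet libraries (-0.44 to -0.33). Separate animals behind the replicates are not stated in the labels, and the p-values therefore cover only the spread among these samples, which may be technical.

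In whole islets, Tgfb3, Tgfbr2 and Tgfbi were higher after 1 week of Dox, with means 5.84, 2.85 and 3.38 times those of No Dox islets. By limma on log2 of (signal + 1), with p-values adjusted over all genes tested, these 3 of the 10 genes passed, as did 5.74% of 14443 genes in either direction. All 3 were higher in Dox islets (background: 4.33%) and 0 lower (background: 1.41%). At an unadjusted p under 0.05, 6 were higher and 0 lower. The share of all genes at that unadjusted p was not counted, so these numbers cannot be set against 4.33% and 1.41%. The median log2 difference of the 10 genes was 1.36, and that of all genes tested was 0.11. In 6 of the 10 genes every Dox library lay above every No Dox library, and among all genes tested the groups did not overlap in 25.4%. Each of the 3 calls was lost when Dox islets replicate 2 or Dox islets replicate 3 was left out. Most calls of the whole table were lost there too. Of the 14443 genes, 829 passed in the main fit, 5 without Dox islets replicate 2 and 87 without Dox islets replicate 3.

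Macrophages and endothelial cells differed in most of the family. Of 9 genes tested between macrophages and endothelial cells, 4 were higher in macrophages (Tgfb1, Tgfb3, Tgfbr1 and Tgfbi) and 5 lower (Tgfb2, Tgfbr2, Tgfbr3, Ltbp1 and Ltbp3), where 59.1% of 13726 genes were called, 27.7% higher and 31.5% lower. In all 9 the groups did not overlap, as in 66.5% of all genes tested. Ltbp2 was too low in both fractions to be tested. Ltbp1 passed the filter on low values only through the endothelial cells, so its call is a description. These 9 calls come from an unpaired fit. They were also made in each fit that left out 1 library, the libraries with high acinar markers included. Set against Dox islets, macrophages were higher in 3 of 10 genes (background: 21.3% of 14479 genes) and lower in 6 (background: 31.4%), where 52.7% of all genes were called. Ltbp2 is among the genes called lower in both fractions, and it passed the filter only through the Dox islets. Ltbp1, called lower in macrophages, also passed there only through the Dox islets. The groups did not overlap in 9 of the 10, against 60.9% of all genes. Endothelial cells were higher than Dox islets in 1 of 10 (background: 11.5% of 14218 genes) and lower in 4 (background: 21.6%), where 33.1% of all genes were called. Here 6 of the 10 did not overlap, against 48.3% of all genes. These last comparisons and the islet comparison all use the same 3 Dox islet libraries. Differences between sorted fractions and whole islets also carry every effect of dispersal and sorting, which cannot be told apart from the cell type.

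**Figure D1:**
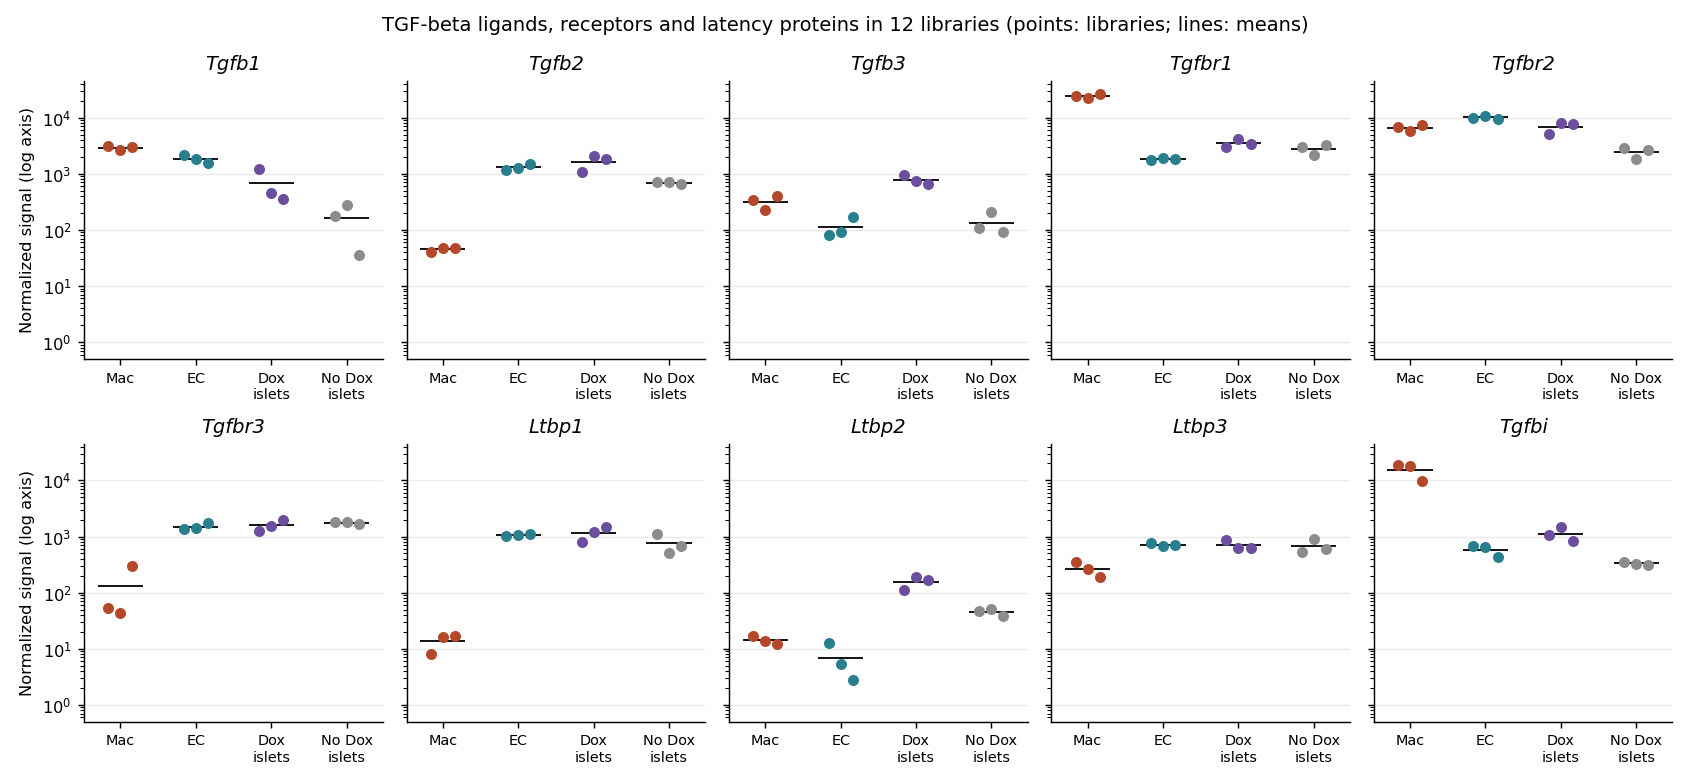
Normalised signal (log axis) of each of the 10 genes in all 12 libraries, with a point per library and a line at each group mean. Macrophages stand highest for Tgfbr1 (22034 to 26786) and Tgfbi (9755 to 18735) and lowest for Tgfb2 (41.0 to 48.3) and Ltbp1 (8.07 to 16.8), and Dox islets stand above No Dox islets without overlap for Tgfb1, Tgfb2, Tgfb3, Tgfbr2, Ltbp2 and Tgfbi.

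The ligand Tgfb1, the form made by most blood-derived cells, lies on chromosome 7 from 26472021 to 26490096 on the plus strand (build mm9). Its signal was 3112, 2635 and 3057 in the 3 macrophage libraries, 2204, 1829.7 and 1547 in endothelial cells, 1229.9, 463 and 358 in Dox islets and 175, 273 and 35.6 in No Dox islets. The groups followed each other in that order without overlap. Macrophages exceeded endothelial cells by 0.67 on the log2 scale (SE 0.15, adjusted p = 0.00511) and Dox islets by 2.31 (SE 0.41, adjusted p = 0.00117), and endothelial cells exceeded Dox islets by 1.64 (SE 0.42, adjusted p = 0.0170). The difference of 2.29 between Dox and No Dox islets (SE 0.75) did not pass (adjusted p = 0.107), with a Dox mean of 684 ± 476 and a No Dox mean of 161 ± 119 (SD, n = 3). The highest library of each islet group, Dox replicate 1 and No Dox replicate 2, is the one with the positive GC correlation, and the longest coding transcript of Tgfb1 is 62.5% GC, the highest of the 10 genes; its part in the values of single libraries was not tested. Tgfb1 passed between islet groups without No Dox islets replicate 2 (2.88, adjusted p = 0.0365) and with each library's GC trend removed (2.17, adjusted p = 0.0266). The call between endothelial cells and Dox islets was lost without endothelial cells replicate 1 (adjusted p = 0.0647), Dox islets replicate 2 (0.0689) or Dox islets replicate 3 (0.0719), and that between macrophages and endothelial cells when all 4 groups were fitted together (adjusted p = 0.416).

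Tgfb2, the ligand that needs betaglycan for strong receptor binding, lies on chromosome 1 from 188447065 to 188529871 on the minus strand (mm9). It had 41.0, 48.3 and 47.2 in macrophages, 1192, 1262 and 1470.1 in endothelial cells, 1087, 2074 and 1807 in Dox islets and 719.6, 705 and 645 in No Dox islets. Macrophages lay far below every other library, at a mean of 45.5 ± 3.96 against 1308 ± 145 in endothelial cells (SD, n = 3), a log2 difference of -4.81 (SE 0.22, adjusted p = 5.58e-07). Against Dox islets the macrophage difference was -5.11 (SE 0.36, adjusted p = 5.73e-06). Endothelial cells and Dox islets overlapped (-0.29, SE 0.26, adjusted p = 0.413), although without Dox islets replicate 1 endothelial cells passed as lower (-0.57, adjusted p = 0.0121). In islets every Dox library exceeded every No Dox library, yet the difference of 1.21 (SE 0.33) did not pass (adjusted p = 0.0632). It passed without Dox islets replicate 1, the lowest of the Dox libraries (1.49, adjusted p = 0.0419).

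Tgfb1 and Tgfb2 were thus placed in opposite order in macrophages and endothelial cells. This pair was chosen for that order, and the 250 bases before the start of each gene are shown. A link between these sequences and the order was not tested. They come from RefSeq (GRCm38.p6), as chr7:25686752-25687001 on the plus strand for Tgfb1 and chr1:186705990-186706239 on the minus strand for Tgfb2, written 5′ to 3′. Capitals mark every match, on either strand, to 7 motifs. The core promoter motifs were the GC box, read as GGGCGG, and the TATA box, read as TATAAA. The motifs of leucine zipper and helix-loop-helix factors were the E-box CACGTG, the cyclic AMP response element (CRE), read as TGACGTCA, and the AP-1 site, read as TGANTCA. The motif CAGACA stood for SMAD proteins, and GAGGAAGT for the myeloid factor PU.1; matches that overlapped were both marked.
Tgfb1: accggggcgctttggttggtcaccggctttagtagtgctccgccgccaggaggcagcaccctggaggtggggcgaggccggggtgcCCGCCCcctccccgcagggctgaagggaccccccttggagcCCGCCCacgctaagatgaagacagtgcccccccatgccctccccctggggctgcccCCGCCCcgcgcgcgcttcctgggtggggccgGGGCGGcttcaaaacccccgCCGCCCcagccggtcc
Tgfb2: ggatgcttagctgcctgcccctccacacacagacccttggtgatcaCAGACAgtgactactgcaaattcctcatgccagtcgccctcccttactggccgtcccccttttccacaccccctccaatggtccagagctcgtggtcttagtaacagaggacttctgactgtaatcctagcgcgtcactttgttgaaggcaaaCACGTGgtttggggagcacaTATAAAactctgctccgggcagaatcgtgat
The Tgfb1 window is 75.2% GC and holds 5 GC boxes, a motif found in 32.7% of 32851 such windows of all genes. The Tgfb2 window is 53.6% GC, near the median of 52.4%, and holds a TATA box 31 bases before the start (12.4% of windows), an E-box 51 bases before it (6.02%) and a SMAD box 204 bases before it (17.1%). A match is a string of letters in this window and not a measured site.

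Tgfb3, a ligand known for its part in palate closure and in mesenchymal cells, lies on chromosome 12 from 87397694 to 87419991 on the minus strand (mm9). Unlike Tgfb1, it was highest in whole Dox islets, with 946, 759 and 645, against 106, 205 and 91.6 in No Dox islets. All 3 Dox libraries lay above all No Dox libraries, and the means were 783 ± 152 and 134 ± 61.4 (SD, n = 3), a log2 difference of 2.61 (SE 0.43, adjusted p = 0.0130). Macrophages had 342, 225 and 396 and endothelial cells 81.5, 90.0 and 169.9. Both fractions lay below all Dox islet libraries, macrophages by -1.31 (SE 0.31, adjusted p = 0.00662) and endothelial cells by -2.83 (SE 0.34, adjusted p = 0.000337), and macrophages exceeded endothelial cells by 1.53 (SE 0.37, adjusted p = 0.00790). Endothelial cells and No Dox islets overlapped and were not tested against each other. The islet call was lost without Dox islets replicate 2 (2.62, adjusted p = 0.0969), without Dox islets replicate 3 (2.74, 0.0574) and without both libraries numbered 1 (2.34, 0.0578).

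The highest Tgfb3 of each sorted fraction was in the library with the highest mural and fibroblast marker sum of that fraction. That sum was 18300.1 in macrophage replicate 3, against 5391 and 5748 in the other macrophage libraries, and 67442 in endothelial replicate 3, against 18620.3 and 18503 in the others. Among Dox islets, replicate 1 had the highest Tgfb3 and the lowest marker sum (250497), of which Rgs5, a pericyte gene, made up 170137. The markers themselves differed in order. In Dox replicate 1, where Tgfb3 was highest, 4 of the 12 were highest (Pdgfrb, Cspg4, Acta2 and Tagln). Another 7 were highest in replicate 2 (Pdgfra, Rgs5, Dcn, Lum, Col1a1, Col1a2 and Col3a1) and 1 in replicate 3 (Myh11). Dox replicate 1 is also the Dox library with the positive GC correlation. The part of mural cells and fibroblasts in the Tgfb3 signal was not tested. Without both libraries numbered 3, macrophages exceeded endothelial cells in Tgfb3 by 1.68 (adjusted p = 0.00269).

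**Figure D2:**
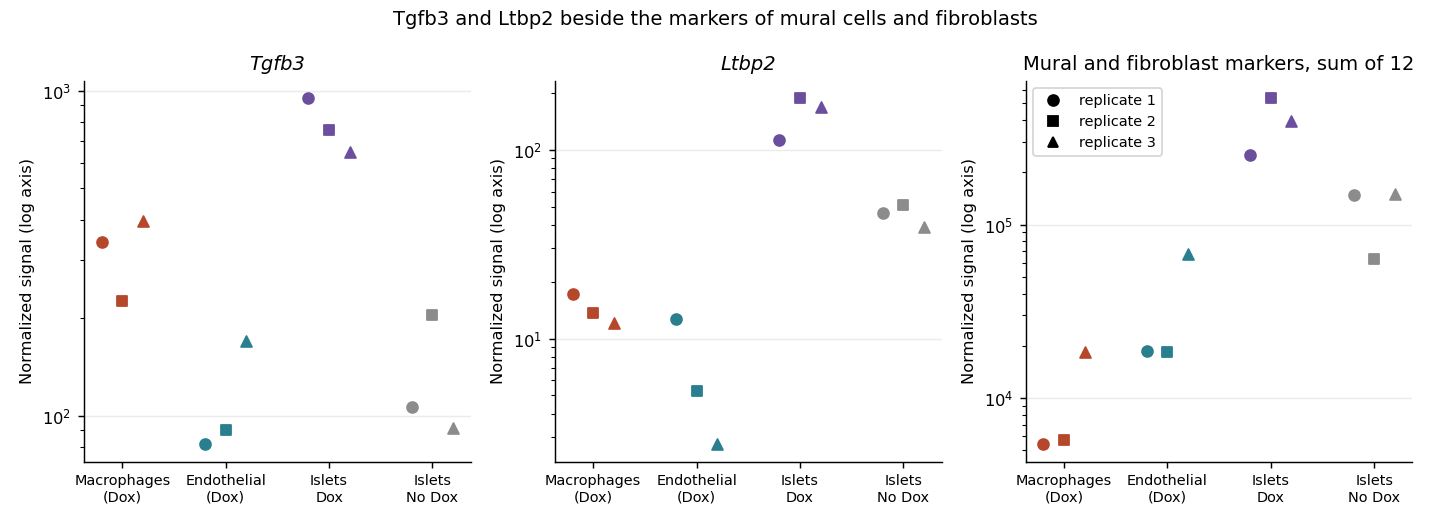
Normalised signal (log axes) of Tgfb3, of Ltbp2 and of the sum of 12 mural cell and fibroblast markers in the 12 libraries, with a symbol for each replicate number. Replicate 3 has the highest marker sum in macrophages (18300.1) and in endothelial cells (67442), and Dox islets (250497 to 534515) lie above No Dox islets (63516 to 149521).

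The type I receptor Tgfbr1, the kinase that phosphorylates SMAD2 and SMAD3, lies on chromosome 4 from 47366094 to 47427803 on the plus strand (mm9). It was highest in macrophages, with 24305, 22034 and 26786, against 1789, 1917 and 1841 in endothelial cells. The macrophage mean was 13.2 times the endothelial mean, a log2 difference of 3.72 (SE 0.10, adjusted p = 5.82e-08). Dox islets had 3035, 4104 and 3331 and No Dox islets 2993, 2134 and 3219, and these groups overlapped (0.34, SE 0.29, adjusted p = 0.605). Macrophages exceeded Dox islets by 2.81 (SE 0.20, adjusted p = 5.97e-06), and endothelial cells lay below Dox islets by -0.91 (SE 0.17, adjusted p = 0.00387), with no overlap in either case.

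The type II receptor Tgfbr2, which binds the ligand first, lies on chromosome 9 from 115993415 to 116084383 on the minus strand (mm9). It had 6734, 5702 and 7366 in macrophages, 9793, 10907 and 9602 in endothelial cells, 5129, 8059 and 7653 in Dox islets and 2836, 1871 and 2611 in No Dox islets. Every Dox islet library lay above every No Dox library, at 6947 ± 1588 against 2439 ± 505 (SD, n = 3), a log2 difference of 1.504 (SE 0.31, adjusted p = 0.0273). Without No Dox islets replicate 1 (adjusted p = 0.0525), Dox islets replicate 2 (0.152) or Dox islets replicate 3 (0.115) it did not pass, with differences of 1.62, 1.38 and 1.42. The lowest library of each islet group was the one with the positive GC correlation, the reverse of Tgfb1. Macrophages lay below endothelial cells by -0.62 (SE 0.12, adjusted p = 0.00200) and overlapped Dox islets (-0.05, SE 0.23, adjusted p = 0.859). Endothelial cells exceeded all Dox islet libraries by 0.57 (SE 0.21), which did not pass (adjusted p = 0.0693) and did pass without Dox islets replicate 1 (0.36, 0.0299) or Dox islets replicate 2 (0.69, 0.04996).

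The promoters of the receptor pair are shown for the same reason as those of the ligands, that the kinase partners took opposite orders in the 2 sorted cell types. A link between sequence and order was not tested here either. They are chr4:47352972-47353221 on the plus strand for Tgfbr1 and chr9:116175364-116175613 on the minus strand for Tgfbr2 (RefSeq, GRCm38.p6), with the same 7 motifs in capitals.
Tgfbr1: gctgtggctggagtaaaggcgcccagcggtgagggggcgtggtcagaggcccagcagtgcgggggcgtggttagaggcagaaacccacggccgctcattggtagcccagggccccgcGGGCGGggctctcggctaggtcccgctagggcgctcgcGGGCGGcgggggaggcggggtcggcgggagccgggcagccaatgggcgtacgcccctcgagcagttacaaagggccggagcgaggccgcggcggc
Tgfbr2: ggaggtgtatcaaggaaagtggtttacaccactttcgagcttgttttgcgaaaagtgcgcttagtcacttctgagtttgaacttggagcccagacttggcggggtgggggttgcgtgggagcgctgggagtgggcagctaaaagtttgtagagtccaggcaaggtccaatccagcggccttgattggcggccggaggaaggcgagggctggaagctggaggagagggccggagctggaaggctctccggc
The Tgfbr1 window is 74.8% GC and holds 2 GC boxes, 133 and 95 bases before the start, and the Tgfbr2 window is 58.4% GC and holds none of the 7 motifs. RefSeq lists a further Tgfbr1 start, whose window holds a SMAD box and no GC box. Of the other genes with an entry, Ltbp1 has a CRE 73 bases before its first listed start, a motif of 1.55% of windows, and 2 SMAD boxes, 149 and 98 bases before its second, Ltbp2 has 2 GC boxes and Tgfbi 1. In all, 8 of the 10 genes matched an entry.

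Because a ratio of 2 genes within a library cancels their lengths when libraries are compared, the log2 ratio of Tgfbr2 to Tgfbr1 was followed across groups. It was -1.85, -1.95 and -1.86 in macrophages, 2.45, 2.51 and 2.38 in endothelial cells, 0.76, 0.97 and 1.20 in Dox islets and -0.08, -0.19 and -0.30 in No Dox islets. The groups did not overlap with means of -1.89 ± 0.05, 2.45 ± 0.06, 0.98 ± 0.22 and -0.19 ± 0.11 (SD, n = 3). The ratio differed by -4.34 between macrophages and endothelial cells and by 1.17 between Dox and No Dox islets, that is 2.24-fold. An exact two-sided permutation test of 3 libraries against 3, taken as unpaired, gave p = 0.10 for each, the smallest p that this design allows. Groups of 3 without overlap always reach that p, so it adds nothing to the lack of overlap. Rescaling whole libraries leaves the ratio nearly the same, and with each library's GC trend removed the islet difference was 1.17. The log2 ratios of Tgfb3 and of Tgfb2 to Tgfb1 were also taken, and in both the islet groups overlapped. Tgfb3 to Tgfb1 ran from -0.38 to 0.85 in Dox islets and from -0.71 to 1.34 in No Dox islets. Tgfb2 to Tgfb1 ran from -0.18 to 2.33 in Dox islets and from 1.37 to 4.14 in No Dox islets.

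**Figure D3:**
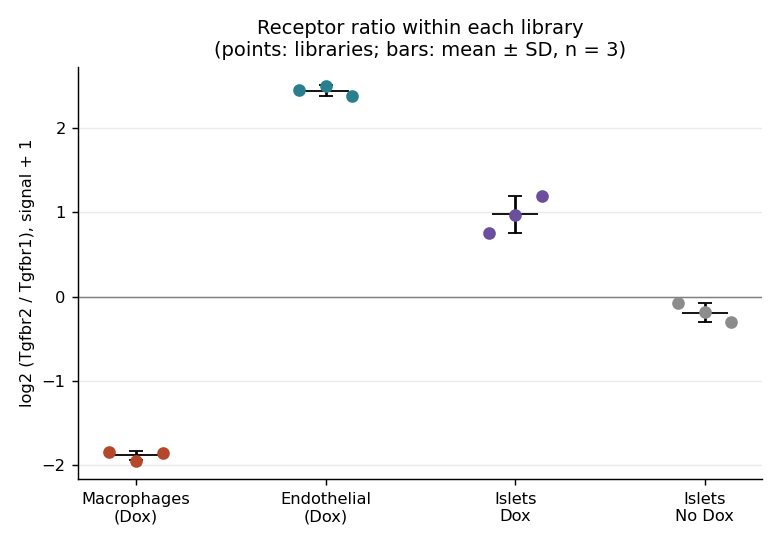
Log2 ratio of Tgfbr2 to Tgfbr1 within each library (points) with the mean ± SD of 3 libraries per group (bars). Macrophages lie at -1.89, endothelial cells at 2.45, Dox islets at 0.98 and No Dox islets at -0.19, without overlap.

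Tgfbr3, or betaglycan, the co-receptor that presents ligand to the type II receptor, lies on chromosome 5 from 107535589 to 107718648 on the minus strand (mm9). Macrophages had 53.9, 42.6 and 293, endothelial cells 1337, 1395 and 1742, Dox islets 1260.3, 1563 and 1984 and No Dox islets 1783, 1782 and 1701. Macrophages alone stood apart, below endothelial cells by -4.06 (SE 0.65, adjusted p = 0.000865) and below Dox islets by -4.15 (SE 0.65, adjusted p = 0.000573). Macrophage replicate 3 was the highest of its group and is the macrophage library with the highest mural marker sum; without it these differences were -4.92 (adjusted p = 7.42e-07) and -5.01 (adjusted p = 1.68e-05). Dox islets overlapped No Dox islets (-0.16, SE 0.29, adjusted p = 0.842) and endothelial cells overlapped Dox islets (-0.09, SE 0.22, adjusted p = 0.778). Neither sign is settled, since without Dox islets replicate 1 the first was 0.005 and without Dox islets replicate 3 the second was 0.08.

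The latency proteins differed among themselves. Ltbp1, which ties latent TGF-beta to the matrix, lies on chromosome 17 from 75404908 to 75791852 on the plus strand (mm9) and was nearly absent from macrophages, with 8.07, 16.5 and 16.8. Endothelial cells had 1006, 1057 and 1089.6, Dox islets 792, 1222 and 1451 and No Dox islets 1093, 501 and 677. Against macrophages, Ltbp1 passed the filter on low values only through the endothelial cells or the Dox islets. Its macrophage differences, -6.22 from endothelial cells (SE 0.35) and -6.31 from Dox islets (SE 0.48), are therefore given as a description. With a pseudocount of 16 these were -5.18 and -5.27, and with quantile scaling the second was -5.66. Endothelial cells overlapped Dox islets (-0.09, SE 0.24, adjusted p = 0.794), as Dox islets did No Dox islets (0.64, SE 0.39, adjusted p = 0.407).

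Ltbp2, a family member that is known not to bind latent TGF-beta, lies on chromosome 12 from 86124162 to 86217482 on the minus strand (mm9). It was low in both sorted fractions, which overlapped, with 17.2, 13.7 and 12.03 in macrophages and 12.8, 5.27 and 2.75 in endothelial cells, against 113, 187 and 169 in Dox islets and 46.5, 51.2 and 38.9 in No Dox islets. It passed the filter on low values against the sorted fractions only through the Dox islets, so its differences, -3.34 for macrophages and -4.49 for endothelial cells against Dox islets, are given as a description. They depend on the pseudocount, at -2.48 and -2.91 with a pseudocount of 16, and on the scaling, at -2.47 and -3.33 with quantile scaling. All Dox islet libraries exceeded all No Dox libraries, by 1.73 (SE 0.51), which did not pass (adjusted p = 0.0771) and did not pass in any of the 16 alternatives run. Its order among the 6 islet libraries and its low level in both sorted fractions are shown beside the mural marker sums in the plot of Tgfb3 and Ltbp2.

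Ltbp3, whose loss in mice alters the skeleton, lies on chromosome 19 from 5740904 to 5758532 on the plus strand (mm9). Macrophages had 348, 261 and 190.3, endothelial cells 752, 665 and 706, Dox islets 874, 623 and 634 and No Dox islets 539, 911 and 593. Macrophages lay below endothelial cells by -1.45 (SE 0.24, adjusted p = 0.00110) and below Dox islets by -1.44 (SE 0.33, adjusted p = 0.00485). The other 3 groups overlapped, with 0.01 between endothelial cells and Dox islets (SE 0.21, adjusted p = 0.975) and 0.08 between Dox and No Dox islets (SE 0.34, adjusted p = 0.936). Within each islet group the highest library was the one with the positive GC correlation, and its longest coding transcript is 61.5% GC.

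Tgfbi encodes a secreted matrix protein named for its induction by TGF-beta and lies on chromosome 13 from 56710920 to 56740923 on the plus strand (mm9). It was highest in macrophages, with 18735, 18003 and 9755 in macrophages against 679, 641 and 424 in endothelial cells. The macrophage mean was 26.7 times the endothelial mean (log2 difference 4.71, SE 0.28, adjusted p = 2.50e-06) and 13.9 times that of Dox islets (3.77, SE 0.30, adjusted p = 1.16e-05). Dox islets had 1072, 1449 and 834 and No Dox islets 355, 328 and 308, so all Dox libraries were higher, at 1118 ± 309.9 against 330.4 ± 23.6 (SD, n = 3), by 1.72 (SE 0.34, adjusted p = 0.0225). Macrophage markers, summed, were also higher in Dox islets, at 13364 to 19848 against 4057 to 6623 in No Dox islets, and their part in the Tgfbi difference was not tested. The islet call was lost without Dox islets replicate 2 (1.52, adjusted p = 0.151), without Dox islets replicate 3 (1.91, 0.0698), without both libraries numbered 1 (1.79, 0.0724) and without Dox replicate 1 and No Dox replicate 2 together (1.73, 0.0773). Endothelial cells lay below Dox islets by -0.94 (SE 0.28, adjusted p = 0.0315), a call lost without endothelial cells replicate 1 (adjusted p = 0.0543), replicate 2 (0.0653) or replicate 3 (0.113) and without Dox islets replicate 2 (0.0947).

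**Figure D4:**
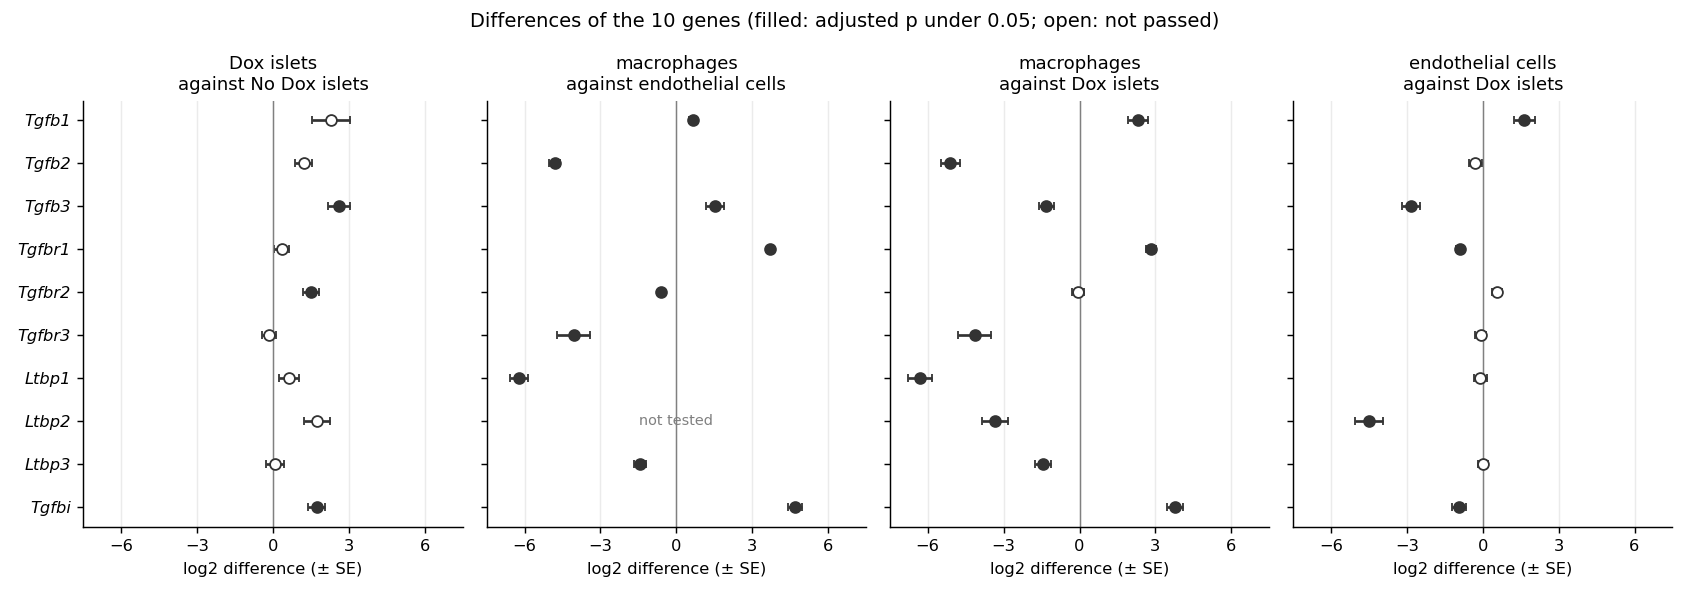
Log2 difference ± SE of the 10 genes in the 4 comparisons, with filled points for an adjusted p under 0.05 and open points for the rest. Tgfb3 (2.61), Tgfbi (1.72) and Tgfbr2 (1.504) are filled for Dox islets against No Dox islets, and Ltbp1 (-6.22) and Tgfbi (4.71) span the range for macrophages against endothelial cells. Ltbp1 passed the filter on low values in that comparison only through the endothelial cells.

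Beyond the 10 genes, 4 lists of other genes of the pathway were followed in islets. Of 13 genes of latency and activation 7 passed, each of them higher in Dox islets, with a list median of 1.51, where 4.33% of all genes tested were called higher and the median of all was 0.11. The 4 with the largest differences were Fbn2 (2.53, adjusted p = 0.0457) and Fbn1 (1.95, 0.0124), the fibrillins to which latent complexes are tethered, Bgn (1.87, 0.0377), which encodes the proteoglycan biglycan, and Lrrc33 (1.70, 0.0326), which anchors latent TGF-beta on myeloid cells. Itgav, the alpha subunit of the activating integrins, stood at 0.01 (adjusted p = 0.989), with means of 8048 in Dox islets and 8029 in No Dox islets. Of 13 commonly used target genes 9 passed, again each higher, with a list median of 2.02, among them Fn1 (fibronectin, 3.62, adjusted p = 0.00590), Acta2 (smooth muscle actin, 3.57, 0.00674) and Postn (periostin, 2.70, 0.0222), while Tsc22d1 stood at 0.40 (0.667). Acta2, Tagln and Col1a1 of this list, and Dcn of the latency list, are also among the 12 mural and fibroblast markers, whose sum was higher in Dox islets; the part of those cells in the lists was not tested.

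Of 12 SMADs and their regulators 3 passed as higher, namely Pmepa1 (1.76, adjusted p = 0.0228), an inhibitor of SMAD signalling that the pathway induces, Smad3 (1.59, 0.0392), which carries the signal to the nucleus, and the ubiquitin ligase gene Smurf2 (1.17, 0.0451), and the repressor gene Skil stood at 0.80 (0.148). Pmepa1 had 2661, 5152 and 4797 in Dox islets against 1525, 959.7 and 1157 in No Dox islets, and these did not overlap. Of 5 co-receptors and decoys Cd109, a TGF-beta co-receptor that limits signalling, rose by 2.64 (adjusted p = 0.0124), with 1612, 2566 and 1681 in Dox islets against 456, 169 and 369.7 in No Dox islets. Eng, the endothelial co-receptor endoglin, stood at 1.73 (adjusted p = 0.0825). The number that passed depended on single libraries. Without Dox islets replicate 2, the genes of these 4 lists that passed were Fn1 and Acta2, and without Dox islets replicate 3 they were Fn1, Acta2 and Fbn1. Over all genes tested, 5 and 87 passed in these fits, against 829 in the main fit. Of the 13 latency genes, 3 passed without No Dox islets replicate 1, 3 without Dox islets replicate 1 and 1 without No Dox islets replicate 3. Of the 13 targets, 5 passed without No Dox islets replicate 1, 7 without Dox islets replicate 1 or No Dox islets replicate 3 and 8 without No Dox islets replicate 2. Of the 12 SMADs and regulators, 1 passed without No Dox islets replicate 1, Dox islets replicate 1 or No Dox islets replicate 3. Of the 5 co-receptors, 2 passed without No Dox islets replicate 2. Over all 14443 genes, 457 passed without No Dox islets replicate 1 and 596 without Dox islets replicate 1. Without No Dox islets replicate 2 or 3, 815 and 571 passed. The filter mattered as well, since with no filter the genes that passed were 2 of 13 targets and 1 of 13 latency genes, and with the looser filter 3 targets, 2 latency genes, 1 SMAD or regulator and 1 co-receptor. Over all genes, 97 of 22711 passed with no filter and 405 of 17896 with the looser filter. Fn1 and Acta2 passed in each of the 16 alternatives run. Fbn2 moved by over 1.5-fold without 1 library, to 3.13 without No Dox islets replicate 1 and 1.85 without No Dox islets replicate 2 (adjusted p = 0.0507), and Postn to 2.11 without No Dox islets replicate 2.

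**Figure D5:**
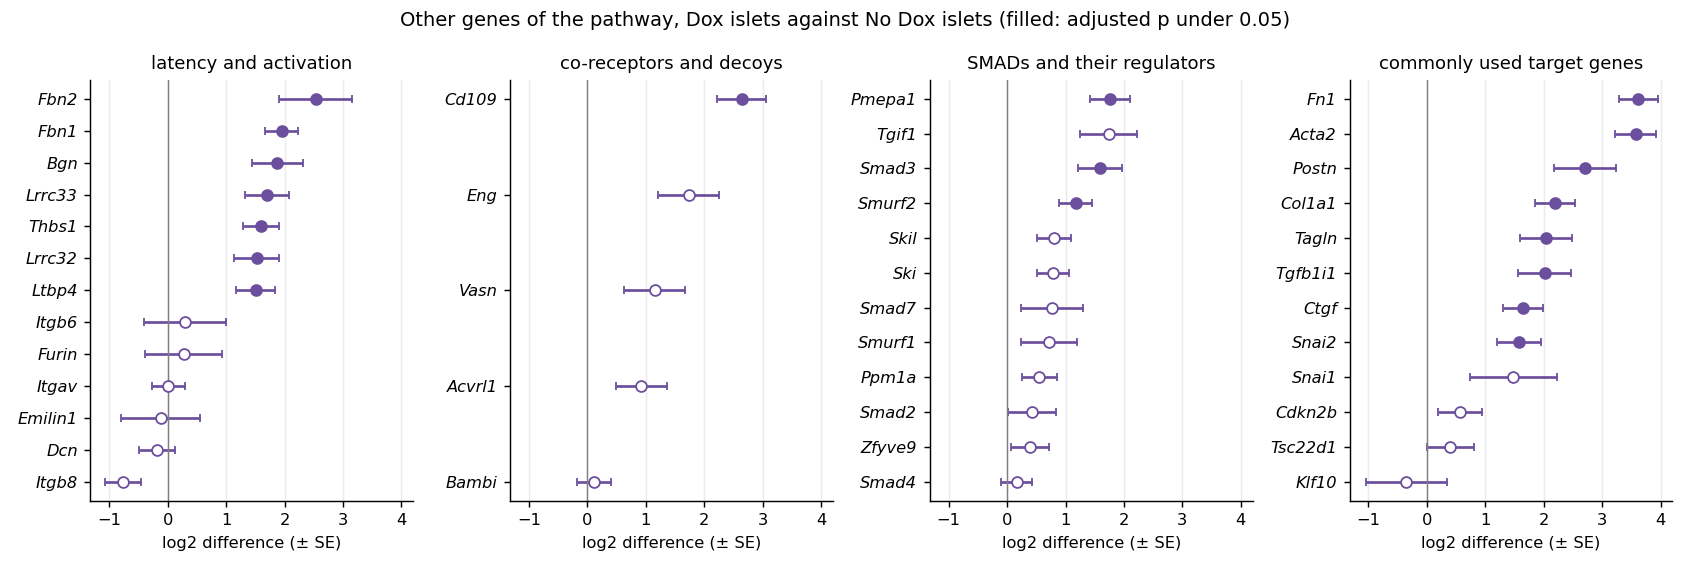
Log2 difference ± SE between Dox and No Dox islets of the other genes of the pathway in 4 lists, with filled points for an adjusted p under 0.05. Filled points lie above 0 throughout, 7 of 13 for latency and activation, 1 of 5 for co-receptors and decoys, 3 of 12 for SMADs and their regulators and 8 of the 12 target genes drawn.

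Between macrophages and endothelial cells, each of the 4 lists held genes called in both directions. Of 13 latency genes 4 were higher and 4 lower in macrophages, with a median of -0.52 against -0.10 over all genes tested, of which 27.7% were higher and 31.5% lower (59.1% in all). The latency genes (8 of 13) and the SMADs (7 of 12) were thus called about as often as all genes. Ltbp4 (-6.02, adjusted p = 1.96e-05), the latency protein not among the 10, was lower like Ltbp1, as were Lrrc32 (-5.65, 7.88e-06), which holds latent TGF-beta on regulatory T cells and endothelium, and Thbs1 (-4.28, 5.65e-08), the activator thrombospondin-1. Lrrc33 was higher, with 13458, 12933 and 15044 in macrophages against 2809.6, 2821 and 2709 in endothelial cells (2.31, adjusted p = 2.93e-07). So was Itgb8 (2.98), the beta subunit of an activating integrin, at means of 113 and 15.9. Itgb8 passed the filter on low values only through the macrophages, so its difference is given as a description. Bgn stood at -0.52 (adjusted p = 0.398). With the replicate number as a block, which pairs these libraries, Bgn (adjusted p = 0.00656) and Smad7 (-0.55, 0.0289) passed as lower. Among the targets Acta2 passed as lower (-1.498, 0.00155) and Col1a1 as higher (1.02, 0.0102). Bgn, Acta2 and Col1a1 were highest in replicate 3 of each fraction, the library with its highest mural and fibroblast marker sum. In macrophages and endothelial cells Acta2 had means of 169 and 533 and Col1a1 of 268 and 134, against 5953 and 8808 in Dox islets. The part of mural cells and fibroblasts in these calls was not tested. The paired counts were 4 higher and 5 lower of 13 latency genes, 2 and 6 of 12 SMADs and regulators, 3 and 9 of 13 targets and 1 and 4 of 5 co-receptors. Over all 13726 genes, 8676 were called in the paired fit, against 8117 in the unpaired fit. Of 5 co-receptors and decoys 4 were lower, namely Cd109 (-6.98), Eng (-5.18), Bambi (-4.29) and Acvrl1 (-2.08), the last a type I receptor of endothelium, with adjusted p from 1.63e-07 to 5.82e-05, and Vasn was higher (1.28, 0.0106). Of 12 SMADs and regulators 2 were higher, the repressor genes Tgif1 (3.34, 2.53e-07) and Skil (1.67, 2.98e-06), and 5 lower, led by Smurf2 (-1.89, 1.56e-06) and Zfyve9 (-1.14, 0.000820), which presents SMADs to the receptor. Of 13 target genes 2 were higher and 8 lower, among them Tgfb1i1 (-4.36, 4.72e-07) and Ctgf (-4.36, 1.61e-05). The 8 include the transcription factor genes Snai2 (-6.85) and Snai1 (-4.85), which passed the filter on low values only through the endothelial cells. Their differences are therefore given as a description. Snai2 had 14.7, 8.25 and 6.05 in macrophages. Snai1 was at the floor of 1 in 2 of 3 macrophage libraries and 6.54 in the third, against 80.8 to 94.0 in endothelial cells. Its difference was -2.48 with a pseudocount of 16 and -5.48 without macrophage replicate 1. With that pseudocount Snai2 was at -5.53 and Itgb8 at 2.08. Without macrophage replicate 3, Ltbp4 moved to -6.67. Postn stood at -0.01 (0.985), a sign that turned under several alternatives.

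Against Dox islets, macrophages were lower in 8 of 13 latency genes and higher in 1, Lrrc33 (3.48, adjusted p = 6.17e-06). They were lower in 11 of 13 target genes, among them Ctgf (-5.79, 2.96e-06), where 31.4% of all genes were lower and 21.3% higher. The 11 include Snai2 (-6.49) and Snai1 (-4.50), which passed the filter on low values only through the Dox islets. Their differences are given as a description. Without Dox islets replicate 1, 3 latency genes were higher. In that fit 8844 of all 14479 genes were called, against 7631 in the main fit. Tgif1 (3.87, 2.51e-06) and Skil (2.12, 3.99e-05) were higher, as they were against endothelial cells. Endothelial cells were higher than Dox islets in 3 of 5 co-receptors, Eng (1.53, 0.0114), Acvrl1 (1.504, 0.0106) and Cd109 (1.16, 0.00331), and in Smad3 (1.11, 0.00107) and Smurf2 (0.64, 0.0259) of 12 SMADs and regulators, where 11.5% of all genes were higher and 21.6% lower. Of the co-receptors, 1 was higher without Dox islets replicate 3, when Eng and Acvrl1 did not pass, and 2 without Dox islets replicate 2, when Eng did not. Of the SMADs and regulators, 7 were higher and 2 lower without Dox islets replicate 1, 3 were higher without Dox islets replicate 2, and 1 was higher without Dox islets replicate 3 or any 1 endothelial library, when Smurf2 did not pass. The calls of the whole table moved too. Of all 14218 genes, 4706 were called in the main fit and 8167 without Dox islets replicate 1 (3663 higher and 4504 lower). Without Dox islets replicate 2 or 3 they were 4133 and 3462, and without 1 endothelial library 3307 to 3575. Endothelial cells were lower in 6 of 13 latency genes, among them Dcn (-6.61, 1.51e-05), and higher in 3. The 3 were Lrrc33 (1.17, 0.00595), Ltbp4 (1.04, 0.0122) and Thbs1 (0.97, 0.00350). Itgb8 (-5.92, and -4.86 with a pseudocount of 16) is among the 6. It passed the filter on low values only through the Dox islets, so its difference is given as a description. Of 13 targets 7 were lower, among them Col1a1 (-6.10, 1.04e-05) and Postn (-5.12, 7.70e-05), genes of fibroblasts. The mural and fibroblast marker sum was 18503 to 67442 in endothelial cells and 250497 to 534515 in Dox islets, and its part in these values was not tested.

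The genes whose log2 signal followed each of the 10 most closely were taken by Pearson's r across the 12 libraries, among about 6365 genes with a mean of at least 716. The points share 4 groups, so r mainly measures how alike the group levels are. Tgfbr1 was followed most closely by Csf2rb2 (0.99) and Plxnc1 (0.99), and Tgfbi by Lgmn (0.99), Plau (0.99) and Abcc3 (0.98), all of them higher in macrophages than in endothelial cells. Tgfb2 and Ltbp1 followed each other (0.99) and shared Nedd4 among their nearest genes (0.99 for each), beside Epas1 and Mtap1a for Tgfb2 and Ppm1e and Cdc42bpa for Ltbp1. Tgfbr3 was nearest to Plekhh2 (0.99), Parva (0.98) and Bend7 (0.98), Tgfbr2 to Sash1 (0.99), Qk (0.98) and Cux1 (0.98), Tgfb1 to Ttyh3 (0.99), Rasa4 (0.98) and Pxn (0.98), and Ltbp3 to Sez6l2 (0.97), Zc3h7b (0.96) and Gpld1 (0.96). The nearest genes of Tgfb3 were Fn1 (0.93), Fblim1 (0.92) and Fads3 (0.85), and those of Ltbp2 were Col1a1 (0.94), Pdha1 (0.91) and Spon1 (0.91). Fn1 had 7351, 7497 and 4648 in Dox islets against 409.6, 472 and 715 in No Dox islets, without overlap. Among the 10 genes themselves, Tgfbr1 and Tgfbi moved together (0.94), and Tgfbr1 ran opposite to Ltbp1 (-0.95) and Tgfb2 (-0.93).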

How the data were processed

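RNA-seq of 12 libraries in 4 groups of 3 was deposited as 1 table of normalised signal per gene; how the authors normalised it is stated in no source used here. The tool TopHat2 2.0 and the build mm9 are listed, per the submitters' processing notes, with no role given. The deposited signal is linear with a floor of 1. Low values lie on multiples of a step for each library, from which whole reads could not be recovered, so no count model was used and depth is unknown. After 1 entry was kept per symbol, 22711 genes remained. Each comparison used its 6 libraries, with genes at a signal of at least 15.5 in 3 of the 6. Log2 of (signal + 1) was tested with limma 3.58.1 with an intensity trend (R 4.3.3), and p-values were adjusted by the Benjamini-Hochberg method over all genes tested, with a threshold of 0.05; the procedure was tested on simulated data. A fold change on this scale understates that of low genes. Tables and plots were made with Python 3.11.15, pandas 2.3.3, numpy 2.4.6 and matplotlib 3.10.9.

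The 10 genes and the pathway and marker lists were chosen with earlier results of these data known. Named pathway genes are, per list and comparison, up to 4 that passed with the largest absolute difference and the gene with the highest mean that did not pass; others that a count or a result turns on were named after their values were seen. Nearest genes are the 3 with the highest Pearson's r across the 12 libraries. Values of 1 target gene, which the counts include, and of 1 nearest gene are not reported here. The titles give replicate numbers to all groups. Same-numbered macrophage and endothelial libraries deviated together over 15105 genes (r = 0.202, 0.359 and 0.311). Each of the 6 was most like its same-numbered partner. Only the replicate block used these numbers as pairs. In every other fit, the main fit included, the libraries were taken as unpaired. In the other comparisons at least 1 r was 0.1 or less. Same-numbered Dox and No Dox islet libraries gave r = -0.246, -0.516 and 0.17, and 0 of the 6 were most like the library of their own number. Alternatives were a pseudocount of 16, no filter, quantile or median ratio scaling, all 4 groups in 1 fit, the replicate block, leaving out each library, and leaving out No Dox replicate 2 with Dox replicate 1. A looser filter, removal of each library's GC trend and leaving out both libraries numbered 1 or 3 were chosen after seeing the data.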

Additional observations from a re-analysis of the deposited data

How the results depend on the processing

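Of the 10 genes, the number higher in Dox islets than in No Dox islets was 3, against 0 with no filter by limma, 5 with all 4 groups in 1 fit, 1 without both libraries numbered 1 and 5 with the GC trend removed, and 0 to 4 when 1 library was left out. Over all genes, 625 were higher and 204 lower. The numbers were 78 and 19 with no filter, 1284 and 322 with all 4 groups in 1 fit, 268 and 34 without No Dox replicate 2 and Dox replicate 1, 292 and 23 without both libraries numbered 1, 322 and 83 with the looser filter and 993 and 686 with the GC trend removed; quantile scaling gave 374 lower. Leaving out 1 library gave 4 to 605 higher and 1 to 210 lower. The share called higher was 75.4%, against 60.3% with quantile scaling, 65.4% with median ratio scaling and 59.1% with the GC trend removed. Between endothelial cells and Dox islets, 1 of the 10 genes was higher, against 0 with no filter, 2 with quantile scaling, 0 with all 4 groups in 1 fit, 2 with the GC trend removed and 0 to 2 when 1 library was left out, when 3 to 5 were lower. Over all genes 1635 were higher there, against 3284 with quantile scaling, which moved the median of all genes to 0.28, and 995 with all 4 groups in 1 fit, and 766 to 3663 when 1 library was left out. The share called higher was 34.7%, against 56.8% with quantile scaling, and between macrophages and Dox islets it was 40.3%, against 51.4% with quantile scaling. The cause of these shifts was not tested.

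With the replicate block, the paired macrophage and endothelial libraries gave the same 4 higher and 5 lower of the 10 genes, and Bgn, Smad7, Col1a1 and Acta2 gained calls. No other gene of the 4 lists changed there. Over all genes, 8676 were called with the block, against 8117 without it. In islets, where the samples share only a number, the block gave 521 higher and 158 lower genes, with Tgfb1 (adjusted p = 0.0258) and Eng (0.0278) passing and Smurf2 (0.132) and Snai2 (0.0709) not. Klf10 (0.0387) and Furin (0.0150) passed between macrophages and Dox islets, and Itgav (0.0562) did not between endothelial cells and Dox islets.

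A sign turned in 36 cases, 0 of them in a gene that had passed. Between islet groups, Ltbp3 was -0.048 with quantile scaling, -0.027 with median ratio scaling, -0.22 without both libraries numbered 1, -0.046 with the GC trend removed and -0.076 to 0.31 without 1 library. Itgav was -0.20 and -0.096 with these scalings, -0.078 without No Dox replicate 2 and Dox replicate 1, -0.11 with the GC trend removed and -0.12 to 0.12 without 1 library. Tgfbr3 was 0.016 without that pair and 0.016 without both libraries numbered 1, and -0.32 to 0.0049 without 1 library. Between macrophages and endothelial cells, Postn was 0.067 with median ratio scaling, 0.41 without both libraries numbered 3, 0.17 with the GC trend removed and -0.38 to 0.47 without 1 library. Between macrophages and Dox islets, Tgfbr2 was 0.055 with median ratio scaling, 0.20 with the GC trend removed and -0.26 to 0.067 without 1 library. Between endothelial cells and Dox islets, Ltbp1 was 0.035 with quantile scaling and -0.34 to 0.095 without 1 library. Ltbp3 was -0.47 and Lrrc32 -0.077 there with the GC trend removed. Without 1 library Ltbp3 ran from -0.074 to 0.17, Tgfbr3 from -0.25 to 0.078 and Tsc22d1 from -0.35 to 0.16. With no depth given, counting error cannot be stated, and 3 libraries per group limit the precision.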
